A study of Mus musculus with 12 samples.

Results

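Skin treated topically with baricitinib for 12 weeks was compared with vehicle-treated skin of other mice at the same time. The arrays with these labels were 6 of the 12 in the series, 3 for each treatment, and 45037 probe sets standing for 18193 genes were compared on them. All mice were of the C3H/HeJ grafted model of alopecia areata, and both treatments began once disease was established, so that the vehicle-treated mice also had the disease. According to the study's methods, the recipients of alopecic skin grafts were kept until hair loss was nearly complete, and baricitinib or vehicle was then applied every day. Each array held RNA from a skin biopsy of 1 mouse, and the labels number the mice separately, giving n = 3 mice for each treatment. The other 6 arrays held skin of the same mice at week 0, the start of treatment. The labels give no age. The methods state that a baricitinib array of each time failed quality control and was removed, without saying which. They also list a control array at baseline as removed, and their wording leaves its experiment unclear. Whether those arrays are among the ones used here is not stated.

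Alopecia areata is an autoimmune disease in which T cells, many of them CD8+ cells that carry the receptor NKG2D, gather around growing hair follicles and hair is lost. Interferon-gamma made by such cells signals through receptors bound to the kinases JAK1 and JAK2, which activate STAT factors in the receiving cell and so switch on chemokines, GTPases and antigen presentation genes. Baricitinib is a small molecule that inhibits JAK1 and JAK2, and the C3H/HeJ mouse develops a similar hair loss that is passed on by grafting skin of affected mice.

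All 6 arrays carried the markers of skin, with the basal keratin gene Krt5 at log2 values of 12.79 to 13.11 and the collagen gene Col1a1 at 11.76 to 12.48. Baricitinib replicate 1 stood apart, with correlations of 0.945 and 0.926 with the other baricitinib arrays, which had 0.986 with each other. The vehicle arrays had correlations of 0.970 to 0.988. RNA quality differed between most baricitinib arrays and vehicle. The 3′ to 5′ index, the log2 level of the 3′ over the 5′ control probe sets of beta-actin and Gapdh, which is higher in degraded RNA, was 3.45, 1.27 and 1.31 in baricitinib replicates 1, 2 and 3 and 2.97, 3.10 and 3.58 in the vehicle replicates. Replicate 1 of baricitinib was thus like vehicle in this index and the others were not. At week 0 the index ran from 2.55 to 4.10 in the mice later given baricitinib and from 1.23 to 4.08 in the vehicle mice. With the index as a covariate 121 of 129 genes called lower and 44 of 44 called higher kept their call. Replicate 1 taken alone against vehicle had a median difference of -2.08 over the lower and 1.45 over the higher genes, whose sign is fixed because called genes do not overlap between treatments. The part of RNA quality in the differences was otherwise not tested.

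More genes passed the test as lower than as higher with baricitinib, and the strongest differences lay in cytotoxic lymphocyte genes, interferon-induced chemokines, hair follicle keratins and markers of activated epidermis on the lower side and in bulge stem cell genes on the higher side. The test was limma's moderated test over all probe sets, with Benjamini-Hochberg adjustment and a threshold of 0.05 on the adjusted p. The test called 261 of the 45037 probe sets (0.58%), 193 lower (0.429%) and 68 higher (0.151%). The 6 values did not overlap between treatments in any of the 261, while over all probe sets they did not overlap in 4364 with baricitinib lower (9.69%) and 3352 with it higher (7.44%). The median difference of called probe sets was -2.14 on the log2 scale among those lower, from -5.48 to -0.98, and 1.87 among those higher, from 1.08 to 4.43. Taking for each gene the probe set with the highest mean, 129 genes were lower (0.709% of 18193) and 44 higher (0.242%). For genes, the values of the treatments did not overlap in 13.3% on the lower and 6.7% on the higher side. How many genes kept their call depended on which mouse was left out. Without vehicle replicate 1, 2 or 3, 16, 25 and 48 of the lower and 6, 6 and 9 of the higher genes were still called. Without baricitinib replicate 1, 2 or 3 it was 111, 44 and 42 of the lower and 40, 6 and 8 of the higher genes. The week 0 arrays enter through the shared estimate of the spread, and leaving out 1 of them kept 75 to 119 lower and 23 to 44 higher genes. In each of the 12 fits 13 lower and 4 higher genes kept their call.

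**Figure D1:**
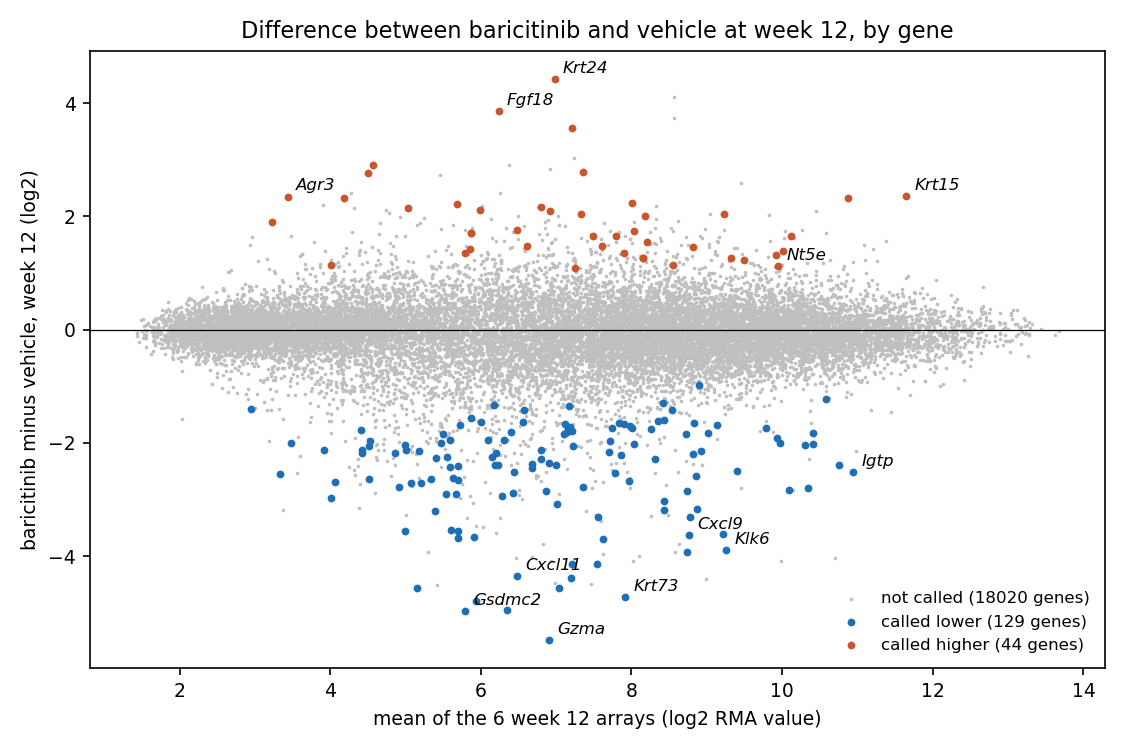
Each point is a gene, placed by its mean log2 value over the 6 week 12 arrays (horizontal axis) and by the log2 difference of baricitinib minus vehicle (vertical axis). The 129 genes called lower reach down to -5.48 (Gzma) and the 44 called higher up to 4.43 (Krt24).

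Chemokines that interferons induce were lower with baricitinib in every measured member. Cxcl9, Cxcl10 and Cxcl11, ligands of the chemokine receptor CXCR3 of T cells, and Ccl5, a chemokine that T cells also make, were all called (4 of 4, median difference -3.67, against -0.04 over all genes). Cxcl9 stood at 7.37, 7.43 and 6.06 in baricitinib replicates 1, 2 and 3 and at 10.93, 10.42 and 10.41 in vehicle, a difference of -3.63 ± 0.39 (SE) or 12.4-fold (adjusted p = 0.00687). Cxcl10 had 6.09, 6.07 and 5.16 with baricitinib and 10.13, 9.30 and 8.99 with vehicle (-3.70 ± 0.48, adjusted p = 0.00969). For Cxcl11 the values were 4.08, 4.42 and 4.42 against 9.26, 8.45 and 8.27 (-4.36 ± 0.47, adjusted p = 0.00687). In these probe sets of the CXCR3 ligands every baricitinib mouse was thus below every vehicle mouse by more than 2 on the log2 scale. The other probe set of Cxcl11 had a smaller difference of -1.11 and was not called (adjusted p = 0.364). Ccl5 was at 7.21, 8.32 and 6.35 and at 10.95, 10.69 and 9.73 (-3.17 ± 0.47, adjusted p = 0.0148), with the lowest baricitinib value in replicate 3. Cxcl9 and Cxcl11 were called in 12 of the 12 fits with an array left out, Cxcl10 in 11 and Ccl5 in 10, and the fit without vehicle replicate 1 called 2 of the 4. Since the biopsies are bulk tissue, fewer cells of a type and less RNA per cell cannot be told apart in any of these differences.

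Nearly all genes of the antiviral interferon response had a difference below 0, and a minority passed the test. Of 43 measured, 8 were called lower and none higher, 41 had a difference below 0 (54.8% of all genes did) and in 30 the treatments did not overlap in the lower direction. The median difference was -1.05. Slfn1, a schlafen gene of lymphocytes, was at 4.47, 4.41 and 2.89 with baricitinib and 7.09, 7.71 and 7.61 with vehicle (-3.55 ± 0.42, adjusted p = 0.00756). Oasl2, of the oligoadenylate synthetase family that senses double-stranded RNA, was at 8.20, 7.21 and 5.94 and 10.81, 10.44 and 10.03 (-3.31 ± 0.49, adjusted p = 0.0148). Ifit1, which binds viral RNA caps, was at 8.42, 7.31 and 6.20 and 10.52, 10.22 and 9.75 (-2.85 ± 0.48, adjusted p = 0.0265). In Oasl2 and Ifit1 baricitinib replicate 1 was the highest of the treated mice, nearest to vehicle. Rtp4 (-2.59), Phf11d (-2.54), Ddx60 (-2.40), Herc6 (-2.13) and Oas1a (-2.01) were the other members called, the last 2 named here to complete them. The other probe sets of Slfn1 (-0.24), Rtp4 (-1.25) and Ddx60 (-0.97) had smaller differences and were not called. Mx1, an antiviral GTPase, had a difference of -2.45 with no overlap but did not pass (adjusted p = 0.0689), nor did Oas3 (-2.21, adjusted p = 0.348). With an array left out in turn, Slfn1 was called in 12 of 12 fits, Phf11d in 11, Oasl2 and Rtp4 in 9, Herc6 in 8, Ifit1 in 6, Ddx60 in 4 and Oas1a in 3. Without vehicle replicate 1 the count of called members fell to 1, and with the RNA index as a covariate it was 18.

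The guanylate-binding and immunity-related GTPases, which interferon-gamma induces for defence against pathogens inside cells, were lower in most members. Of 10 list members measured, 7 were called lower, none higher, and all 10 had no overlap between treatments (median difference -2.09). Igtp was at 9.65, 10.53 and 8.86 with baricitinib and 12.14, 12.26 and 12.20 with vehicle (-2.52 ± 0.36, adjusted p = 0.0133). Irgm1 was at 7.15, 7.83 and 6.55 and 9.34, 9.33 and 9.70 (-2.28 ± 0.30, adjusted p = 0.0101). The vehicle mice lay close together in both genes and the baricitinib mice were spread more widely, with replicate 3 the lowest. Gbp8 (-2.85), Iigp1 (-2.83), Gbp3 (-2.15), Gbp6 (-2.03) and Ifi47 (-2.0) were also called, while Irgm2 (-1.82, adjusted p = 0.0524), Gbp7 (-1.43, 0.0585) and Gbp2 (-1.40, 0.199) were not. Gbp2b, a guanylate-binding gene missing from the list and chosen after its values were seen, was called lower too (-1.68, in 7 of the 12 fits). Several of these genes are close copies of each other, and their probe sets may share signal. Irgm1 was called in 11 of the 12 fits with an array left out, Igtp, Gbp8 and Ifi47 in 9, Gbp3 in 3, Iigp1 in 2 and Gbp6 in 1. Leaving out vehicle replicate 1 left 0 called, and leaving out baricitinib replicate 1 made it 9.

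The promoters of 7 called interferon genes are shown because they hold the sequence that interferon-activated factors read. The 250 bases before each gene's start, as given by RefSeq for GRCm38.p6, were searched on both strands for the interferon-stimulated response element in the form GAAANNGAAA and for the STAT site in the form TTCNNNGAA. The 120 bases around the matches are printed. Capitals mark the first motif, which reads TTTC where it lies on the other strand, and sequences run 5′ to 3′ along the gene. Irgm1, Gbp3 and Oas1a each hold 2 copies that overlap each other, and no copy overlapped a STAT site. These genes, from the lists of chemokines, antiviral genes and GTPases above, were the called ones with a match.
Cxcl10 (chr5:92349020-92349139, minus strand): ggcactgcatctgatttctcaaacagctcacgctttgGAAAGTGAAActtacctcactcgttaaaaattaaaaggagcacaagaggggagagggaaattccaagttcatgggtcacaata
Ifit1 (chr19:34640739-34640858, plus strand): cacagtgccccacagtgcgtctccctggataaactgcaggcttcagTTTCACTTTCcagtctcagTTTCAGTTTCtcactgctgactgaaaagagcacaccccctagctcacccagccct
Igtp (chr11:58199436-58199555, plus strand): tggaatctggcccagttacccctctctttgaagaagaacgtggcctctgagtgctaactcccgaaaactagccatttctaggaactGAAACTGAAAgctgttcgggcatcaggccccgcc
Ddx60 (chr8:61927967-61928086, plus strand): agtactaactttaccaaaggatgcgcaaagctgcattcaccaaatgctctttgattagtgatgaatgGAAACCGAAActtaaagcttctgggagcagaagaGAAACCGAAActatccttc
Irgm1 (chr11:48871421-48871540, minus strand): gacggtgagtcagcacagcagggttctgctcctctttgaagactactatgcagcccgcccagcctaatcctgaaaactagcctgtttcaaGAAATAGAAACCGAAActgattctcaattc
Gbp3 (chr3:142559924-142560043, plus strand): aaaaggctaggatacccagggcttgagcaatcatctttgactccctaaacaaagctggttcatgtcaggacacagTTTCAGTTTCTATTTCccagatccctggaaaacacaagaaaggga
Oas1a (chr5:120907526-120907645, minus strand): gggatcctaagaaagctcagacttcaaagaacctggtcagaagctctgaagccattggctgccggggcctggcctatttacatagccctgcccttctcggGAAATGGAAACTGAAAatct
In all, 13 of the 19 called genes of these 3 lists had a promoter entry, and 7 of the 13 held the motif (53.8%), as did 9 of 28 promoters of list members that were not called (32.1%). Over all 27025 promoters the share was 3.06% (828), among the called lower genes outside the lists 4 of 85 (4.71%), and among called higher genes 0 of 36. Gzma, with a copy 87 bases before its start, was 1 of the 4 outside the lists. Another of the 4 was Gbp2b, with a copy 127 bases before its start, which is a guanylate-binding gene although not listed. The STAT site was found in 2 of the 13 (15.4%), in 6 of the 28 (21.4%) and in 7.11% of all promoters. These shares describe letters in a short window and were not tested.

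Interferon-gamma itself was lower with baricitinib, while the kinases and factors of the pathway did not pass. Ifng was at 3.77, 4.98 and 4.35 with baricitinib and 7.20, 6.73 and 6.47 with vehicle (-2.43 ± 0.40, adjusted p = 0.0248), and was the 1 called member of 21 interferon, receptor and regulatory factor genes. It was called in 8 of the 12 fits with an array left out, and not without vehicle replicate 1, 2 or 3 or baricitinib replicate 3. Stat4, which relays interleukin-12 signals in T and natural killer cells, came nearest among the 10 kinases and STAT factors measured, at 3.11, 3.70 and 4.29 and 6.32, 5.92 and 4.90 (-2.01 ± 0.39, adjusted p = 0.0503). Jak1 (-0.47, adjusted p = 0.493) and Jak2 (-0.10, 0.949), the targets of the drug, had small differences, as had Jak3 (0.02, 0.996) and Tyk2 (-0.36, 0.723). The dimmer probe sets of Jak1 had the opposite sign, at 0.23 and 1.07, and were not called (adjusted p = 0.908 and 0.279). Stat2 had -1.23 (0.619), and Stat3 (0.11), Stat5a (0.14), Stat5b (0.28) and Stat6 (-0.56) lay between -0.56 and 0.28. Of 14 SOCS and phosphatase genes that restrain the pathway, Socs5 was called lower (-1.85, adjusted p = 0.0364), in 5 of the 12 fits with an array left out. Its other probe set, at a like level, differed by 0.0087 and was not called.

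The antigen presentation genes measured, many of them also induced by interferon-gamma, were not among the called genes. Of 26 MHC class I presentation genes listed 16 were measured, and of 11 class II genes 10. None of the 16 (median difference -0.16) and none of the 10 (0.03) passed. The study reported less class I and class II staining in baricitinib-treated skin, which shows protein and not RNA. B2m, the light chain of class I molecules, was at 13.33, 13.29 and 13.30 and 13.22, 13.24 and 13.37 (0.03 ± 0.18), and Cd74, the invariant chain of class II, at 12.39, 12.99 and 13.04 and 12.75, 12.97 and 12.52 (0.06 ± 0.30). Both overlapped between treatments. H2-Oa, an MHC class II gene, came nearest in its list (0.92, adjusted p = 0.365), and Erap1, which trims peptides, in the other (-0.94, 0.26). The medians of both lists changed sign or size with baricitinib replicate 1, being -0.47 and -0.29 for that array alone against vehicle and 0.09 and 0.20 without it, and with the RNA index as a covariate they were -0.40 and -0.35.

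Some genes of cytotoxic T cells were far lower with baricitinib, and others did not pass the test. Gzma, a granzyme of T and natural killer cell granules, had the largest difference of all genes, at 3.55, 6.48 and 2.47 with baricitinib against 10.67, 9.86 and 8.40 with vehicle (-5.48 ± 0.90 or 44.6-fold, adjusted p = 0.0247). Gzmb, a granzyme that triggers apoptosis, was at 4.0, 5.11 and 3.13 and 8.34, 7.28 and 7.59 (-3.66 ± 0.49, adjusted p = 0.0109). Cd8a, the alpha chain of the CD8 co-receptor, was at 3.79, 6.61 and 4.59 and 9.80, 9.19 and 9.17 (-4.39 ± 0.60, adjusted p = 0.0109), and 2 of its 5 probe sets were called. Replicate 2 was the highest of the treated mice in all 3 genes and was still below every vehicle mouse. Perforin (Prf1), released with the granzymes, was at 5.56, 6.69 and 7.0 and 6.21, 5.86 and 5.53 (0.55 ± 0.37, adjusted p = 0.688), overlapping. Of the CD3 chains present in all T cells, Cd3e was at 9.27, 9.69 and 9.73 and 9.75, 9.73 and 9.28 (-0.03 ± 0.26), Cd3d differed by -0.04 and Cd3g by 0.54. Cd4 was low with overlap (0.11), and Cd8b1, also low, had -0.73 without overlap (adjusted p = 0.69). Baricitinib replicate 1 had the lowest treated value of each CD3 chain. Over the lists, 3 of 16 granule and death ligand genes were called lower (median -1.57), the third being Gzmg (-2.55), and 1 of 18 receptor complex genes (Cd8a, median -0.33). Gzme (-3.19, adjusted p = 0.0704) and Fasl (-2.43, 0.188) had large differences that did not pass. Gzma was called in 9 of the 12 fits with an array left out, Gzmb in 11, Cd8a in 10 and Gzmg in 2, and the fit without vehicle replicate 1 called none of these.

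A few genes of T cell activation and natural killer receptors were lower with baricitinib. Icos, a costimulatory receptor of activated T cells, was at 7.40, 6.84 and 6.04 with baricitinib and 8.85, 8.86 and 9.19 with vehicle (-2.21 ± 0.36, adjusted p = 0.0242). Tnfrsf9, the receptor 4-1BB, and Cd40, a receptor of antigen-presenting cells, were also lower (-2.26 and -1.35, adjusted p = 0.0412 and 0.0473), 3 of 19 measured. Icos was called in 7 of the 12 fits with an array left out, Tnfrsf9 in 5 and Cd40 in 2, and the fit without baricitinib replicate 2 called none of them. The other probe sets of Tnfrsf9 and Cd40 were not called and reached 0.08 and 0.25, with the opposite sign. Klrc1, which encodes NKG2A, an inhibitory receptor of natural killer and CD8+ cells, was at 5.20, 5.98 and 5.20 and 7.81, 7.94 and 7.98 (-2.45 ± 0.34, adjusted p = 0.0113), the vehicle mice being nearly equal. It was the 1 called of 13 killer lectin receptor genes, in 9 of the 12 fits, and Klrk1, which encodes NKG2D, had -0.39 with overlap (adjusted p = 0.859). Ikzf3, a lymphocyte transcription factor, differed by -2.36 (adjusted p = 0.0101, called in 10 of the 12 fits), and Runx3, which directs CD8+ T cell fate and was not called, by -1.75 (0.0531). The other probe sets of Icos (-0.15 and -0.47), Klrc1 (-0.24) and Ikzf3 (-0.34 and -0.15) had smaller differences and were not called. Gimap3, a GTPase of T cell survival, was at 4.82, 6.14 and 4.46 and 9.64, 9.91 and 8.27 (-4.13 ± 0.52, adjusted p = 0.00861), called in 11 of the 12 fits. None of 13 common gamma chain cytokine and receptor genes was called, the nearest being Il2ra (-1.04, adjusted p = 0.298).

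**Figure D2:**
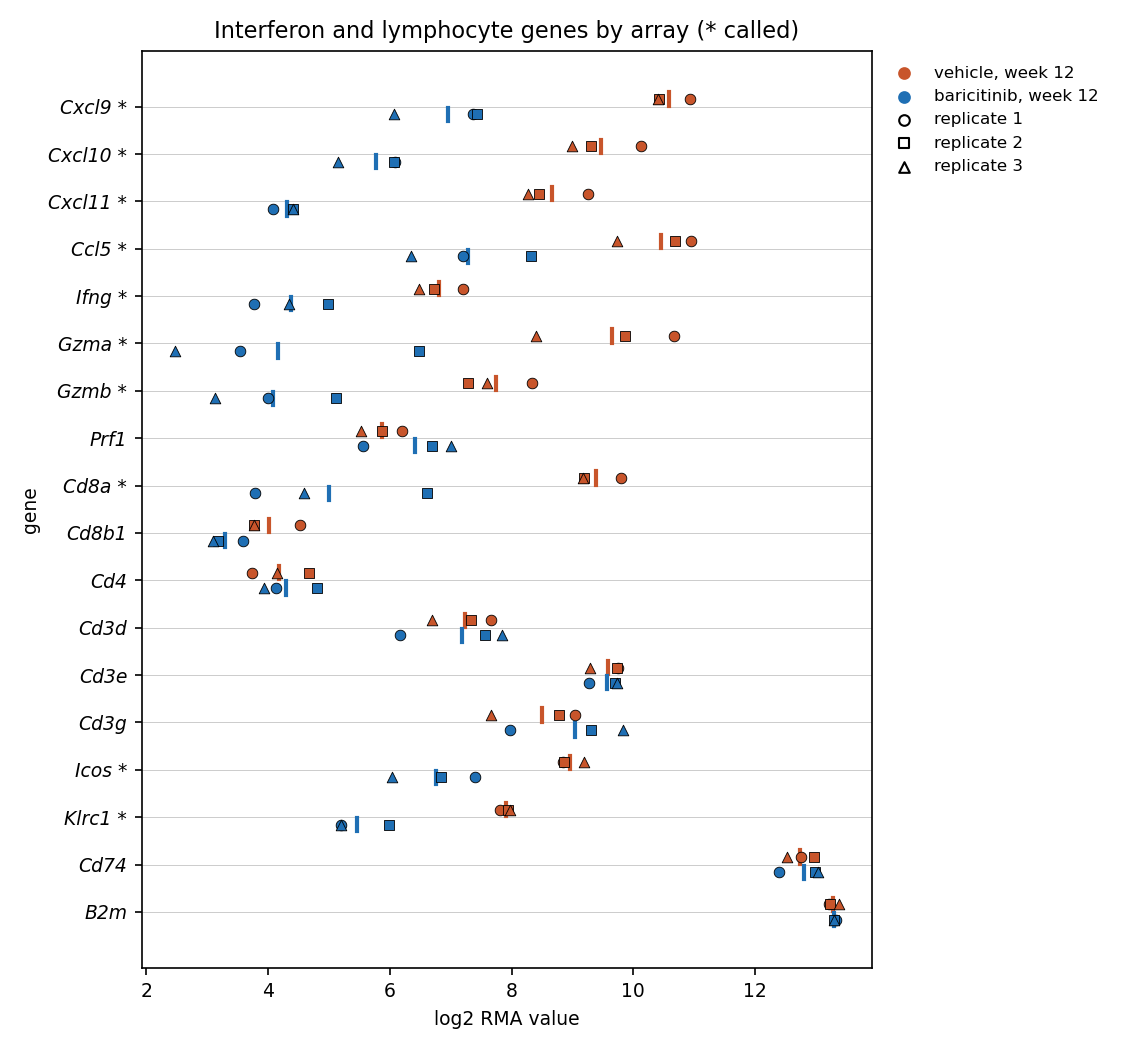
Log2 values (horizontal axis) of interferon and lymphocyte genes (vertical axis) in the 6 week 12 arrays, with marker shape for the replicate, colour for the treatment, a short bar for the mean of 3 mice and an asterisk for called genes. Chemokines, granzymes, Cd8a, Icos and Klrc1 separate the treatments, while Prf1, Cd4, the CD3 chains, Cd74 and B2m overlap.

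Among other immune genes few passed. Ccl3, a chemokine of activated leukocytes, was the 1 called of 20 further chemokines (-2.13 ± 0.40, adjusted p = 0.0441), and 17 of the 20 had a difference below 0. None of 14 chemokine receptors was called, with Ccr2 at -1.99 (adjusted p = 0.125) and Cxcr6 at -1.46 (0.161). Of 24 inflammatory cytokines, Il1f6 and Il1f8, interleukin-36 genes of keratinocytes, were lower (-2.37 and -1.68, adjusted p = 0.0308 and 0.0262). Selplg, the selectin ligand by which leukocytes roll, was the 1 called of 17 adhesion genes (-1.67, adjusted p = 0.0485). No marker was called among 25 of macrophages and monocytes, 15 of dendritic and Langerhans cells, 11 of B and plasma cells, 13 of mast cells and 12 of neutrophils. The summed level of the macrophage list ranged from 13.00 to 14.19 with baricitinib and from 13.44 to 14.27 with vehicle, and that of the T cell receptor list from 12.25 to 12.35 and from 12.65 to 12.81. The macrophage list had a median of -0.14, which was 0.18 for baricitinib replicate 1 alone and -0.49 without it. Ifitm6, an interferon-induced transmembrane gene counted here with neutrophils, had one of the largest differences on the higher side without passing, at 10.06, 10.88 and 10.91 with baricitinib and 6.20, 7.20 and 6.15 with vehicle (4.10 ± 0.83, adjusted p = 0.0569). With an array left out in turn, Ccl3 was called in 4 of 12 fits, Il1f6 in 6, Il1f8 in 7 and Selplg in 1, and the fit without baricitinib week 0 replicate 1 called none of these.

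Structural genes of the growing hair had differences below 0 in nearly every member, and 2 passed the test. The study reported hair growth in baricitinib-treated mice and no clinical sign of regrowth in vehicle-treated mice. How these RNA levels relate to the visible hair was not tested. Krt73, which encodes a keratin of the sheath that moulds the hair from inside the follicle, was at 6.09, 6.08 and 4.46 with baricitinib and 10.14, 10.26 and 10.44 with vehicle (-4.73 ± 0.53 or 26.6-fold, adjusted p = 0.00687), and passed with each of the 12 arrays left out. Krt35, a keratin of the early hair shaft, was at 3.39, 4.44 and 2.79 and 8.30, 8.21 and 8.51 (-4.80 ± 0.70, adjusted p = 0.0148). These were the members called among 10 inner root sheath genes (median -3.06, 9 below 0) and 12 hair shaft keratins (-2.76, 12 below 0). None of 31 keratin-associated proteins, the matrix between the hair keratins, was called, though 30 were below 0 and in 24 the treatments did not overlap (median -2.51). Krt25 (-4.03, adjusted p = 0.0585), Krt27 (-4.09, 0.0585), Krtap4-16 (-4.49, 0.0567) and Krt31 (-3.20, 0.24) had large differences without passing. Krt25 was at 10.38, 8.75 and 6.92 with baricitinib and 12.70, 12.62 and 12.82 with vehicle, and the treated mice lay far apart. Krt35 was called in 8 of the 12 fits with an array left out. Before treatment the medians of these lists had the opposite sign, at 0.96 for shaft keratins, 0.97 for keratin-associated proteins and 0.87 for the inner root sheath, with no member called. With the RNA index as a covariate the week 12 medians were -3.44, -3.34 and -3.74, and for baricitinib replicate 1 alone -1.43, -1.67 and -2.0.

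Called genes of the hedgehog, follicle crosslinking and dermal papilla lists were lower with baricitinib. The called hair cycle signals, Fgf18 and Bmp2, were higher and are given with the bulge genes. Shh, the signal that drives growth of the follicle, was at 2.45, 4.35 and 1.80 with baricitinib and 6.39, 7.79 and 8.14 with vehicle (-4.57 ± 0.83, adjusted p = 0.0377), in 1 of its 2 probe sets, and no other of 11 hedgehog genes was called. It was called in 4 of the 12 fits with an array left out, and not without baricitinib replicate 1. Padi4, which converts arginine to citrulline in proteins, was at 6.47, 4.80 and 5.16 and 9.46, 8.34 and 7.85 (-3.08 ± 0.49, adjusted p = 0.0208), the 1 called of 20 crosslinking and differentiation genes. Corin, a protease of the dermal papilla that instructs the follicle, was at 4.43, 3.20 and 2.93 and 5.55, 6.44 and 6.92 (-2.78 ± 0.42, adjusted p = 0.0165) and was the 1 called of 19 dermal papilla genes, 12 of which lay above 0. None of 30 hair matrix and Wnt genes passed (median -0.19), with Msx2 at -1.60 (adjusted p = 0.228). Padi4 and Corin were each called in 8 of the 12 fits, and neither without baricitinib replicate 2.

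Genes of the bulge, the niche of resting follicle stem cells, were the list with most members called higher. Krt24, a keratin of the bulge, had the largest difference on this side, at 10.83, 8.48 and 8.28 with baricitinib and 4.75, 5.13 and 4.41 with vehicle (4.43 ± 0.74 or 21.6-fold, adjusted p = 0.0256). Fgf18, a growth factor that holds follicles in rest, was at 6.34, 8.80 and 9.36 and 4.62, 4.51 and 3.78 (3.87 ± 0.64, adjusted p = 0.0248). Krt15, a keratin of basal and bulge cells, was at 11.86, 13.22 and 13.41 and 10.83, 10.41 and 10.15 (2.36 ± 0.42, adjusted p = 0.0324). Baricitinib replicate 1 was the highest treated mouse in Krt24 and the lowest in Fgf18 and Krt15, and it was above every vehicle mouse in all 3. These were the 3 called of 20 bulge genes (median 0.48, 15 above 0). Bmp2, which keeps bulge cells quiet, was also higher, at 9.77, 9.37 and 9.46 and 7.89, 8.01 and 8.36 (1.45 ± 0.24, adjusted p = 0.0247), so that with Fgf18 it made 2 called of 22 FGF and BMP hair cycle signals. Cd34 (0.99), Sox9 (0.48), Lhx2 (0.75) and Lgr5 (0.36), other genes of the bulge and its surroundings, were not called (adjusted p = 0.502, 0.827, 0.575 and 0.916). Krt24 was called in 8 of the 12 fits with an array left out, Fgf18 and Bmp2 in 7 each and Krt15 in 5, and the fit without baricitinib replicate 2 called none of them. With baricitinib replicate 1 left out the bulge median was 0.89 in place of 0.48 (0.32 for that array alone), the FGF and BMP median was 0.15 in place of 0.37 and that of the dermal papilla list -0.09 in place of 0.13.

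**Figure D3:**
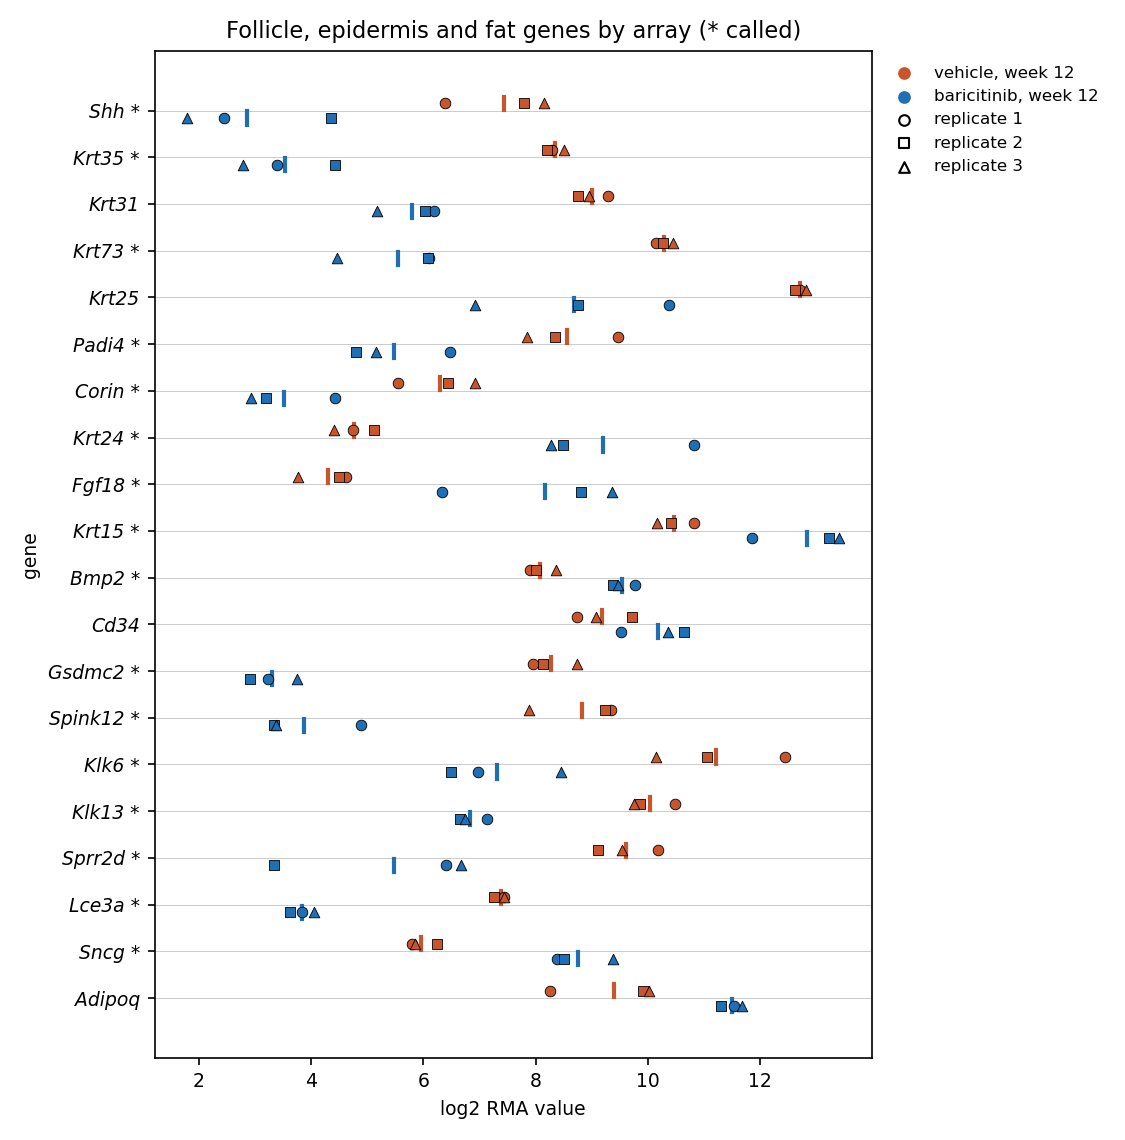
Log2 values (horizontal axis) of hair follicle, epidermal and fat genes (vertical axis) in the 6 week 12 arrays, with marker shape for the replicate, colour for the treatment, a short bar for the mean of 3 mice and an asterisk for called genes. From Shh to Corin baricitinib is lower, from Krt24 to Cd34 and in Sncg and Adipoq it is higher, and in the epidermal genes from Gsdmc2 to Lce3a it is lower.

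Several genes of activated and shedding epidermis were lower with baricitinib. Gsdmc2, a gasdermin, was at 3.23, 2.91 and 3.76 with baricitinib and 7.95, 8.13 and 8.73 with vehicle (-4.97 ± 0.68, adjusted p = 0.0109), the 1 called of 5 gasdermins. In Gsdma, a gasdermin of the upper epidermis, the brighter probe set did not pass (-1.20, adjusted p = 0.06) and the dimmer one was called lower (-1.76). Klk6 was at 6.97, 6.5 and 8.46 and 12.43, 11.05 and 10.14 (-3.90 ± 0.72, adjusted p = 0.0402), and Klk13 at 7.13, 6.65 and 6.74 and 10.47, 9.86 and 9.76 (-3.19 ± 0.36, adjusted p = 0.00687). Both are kallikreins, serine proteases of the upper epidermis, and Klk13 passed with each of the 12 arrays left out whereas Klk6 was called in 2 of those 12 fits. Spink12, of a family of serine protease inhibitors, was at 4.89, 3.34 and 3.39 and 9.33, 9.23 and 7.89 (-4.95 ± 0.82, adjusted p = 0.0253). The small proline-rich genes Sprr2d (-4.14, adjusted p = 0.0362) and Sprr2h (-3.61, 0.0231), which stiffen the cornified envelope, and the stefin gene Stfa3 (-2.79, 0.024) were the called members of 23 epidermal activation genes (median -1.61, 19 below 0). Both gene families have near-identical members, so the probe sets may not tell them apart. The stress keratins Krt6a (-1.45, adjusted p = 0.097), Krt16 (-1.61, 0.294) and Krt6b (-3.29, 0.171) did not pass. Of 39 interfollicular keratin and barrier genes, Lce3a and Lce1h, late envelope proteins of the horny layer, were lower (-3.53 and -2.5, adjusted p = 0.00404 and 0.0478). Lce3a was at 3.84, 3.63 and 4.06 with baricitinib and 7.43, 7.27 and 7.43 with vehicle, and kept its call with each of the 12 arrays left out. Gsdmc2 and Stfa3 were called in 9 of those fits, Sprr2h and Spink12 in 7, Sprr2d in 6 and Lce1h in 3, and the fit without vehicle replicate 1 called 0 of the epidermal activation genes.

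The listed cell cycle genes had a small median difference, and nearly all had the same sign. Of 31 measured, 30 lay below 0 (median -0.54), and Mcm5, part of the helicase that opens replication origins, was the 1 called, at 7.94, 7.30 and 7.65 with baricitinib and 8.71, 9.53 and 9.46 with vehicle (-1.60 ± 0.31, adjusted p = 0.0463). Mcm2 (-1.21, adjusted p = 0.0585) and Bub1 (-1.66, 0.118) separated the treatments without passing, and Mki67 (-0.45) overlapped. Mcm5 was called in 4 of the 12 fits with an array left out, and not without baricitinib week 0 replicate 1. Outside this list, and chosen after their values were seen, further genes of replication and the cell cycle were called lower. They included Cdca5 (-2.06, called in 12 of the 12 fits), Clspn (-2.39, in 9), E2f7 (-2.24, in 2) and Asf1b (-1.30, in 2). Cell cycle genes outside the list were not compared as a set.

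Nearly all fat genes had a difference above 0, and 1 of them passed the test. Sncg, gamma-synuclein, which is abundant in fat and nerve, was at 8.38, 8.51 and 9.38 with baricitinib and 5.81, 6.24 and 5.85 with vehicle (2.79 ± 0.33, adjusted p = 0.00756) and passed with each of the 12 arrays left out. Of 27 adipocyte genes, 26 lay above 0 and in 14 the treatments did not overlap (median 0.77). Adipoq, the hormone adiponectin, was at 11.53, 11.30 and 11.68 and 8.26, 9.92 and 10.02 (2.10, adjusted p = 0.177), Cidec of lipid droplets had 2.19 (0.063) and Lep, leptin, 2.01 (0.178). Vehicle replicate 1 was the lowest in Adipoq, Cidec and Lep. The summed level of the list was 15.83 to 16.16 with baricitinib and 15 to 15.69 with vehicle. With the RNA index as a covariate 11 members were called and the median was 1.5. Adig, adipogenin, of no list here, was also higher (2.16, adjusted p = 0.0397, called in 5 of the 12 fits). None was called among 17 of the sebaceous gland (nearest Elovl3, 1.65, adjusted p = 0.0549), 22 of endothelial and lymphatic cells (Emcn, 1.79, 0.0691), 29 of dermal fibroblasts (Mmp13, -3.14, 0.114) and 28 of skeletal muscle (median -0.25, but 0.31 for baricitinib replicate 1 alone and -0.48 without it). The summed level of the muscle list was 15.05 to 16.76 with baricitinib and 15.80 to 16.44 with vehicle. The part of the depth of the biopsy in the fat and muscle values was not tested.

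The remaining lists held no called gene. These were 7 genes of the companion layer and outer root sheath (nearest Krt6a), 13 desmosomal genes (Dsg2, -0.81, adjusted p = 0.346), 14 of melanocytes (median -0.70, 12 below 0), 19 of cholesterol synthesis (-0.22), 8 of nerve, 3 of erythrocytes, 17 immediate early and heat shock genes (0.16) and 18 of the circadian clock (-0.11). Melanocyte genes had a median of 0.73 at week 0 and of 0.05 for baricitinib replicate 1 alone at week 12. The study scored these samples with signature gene sets named ALADIN, and of the members measured 3 of 4 interferon genes and 3 of 4 cytotoxic T cell genes were called lower and 0 of 5 keratin genes, with Krt82, a keratin of the hair cuticle, nearest (-3.48, adjusted p = 0.123). These genes recur in the lists above and give no independent count.

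**Figure D4:**
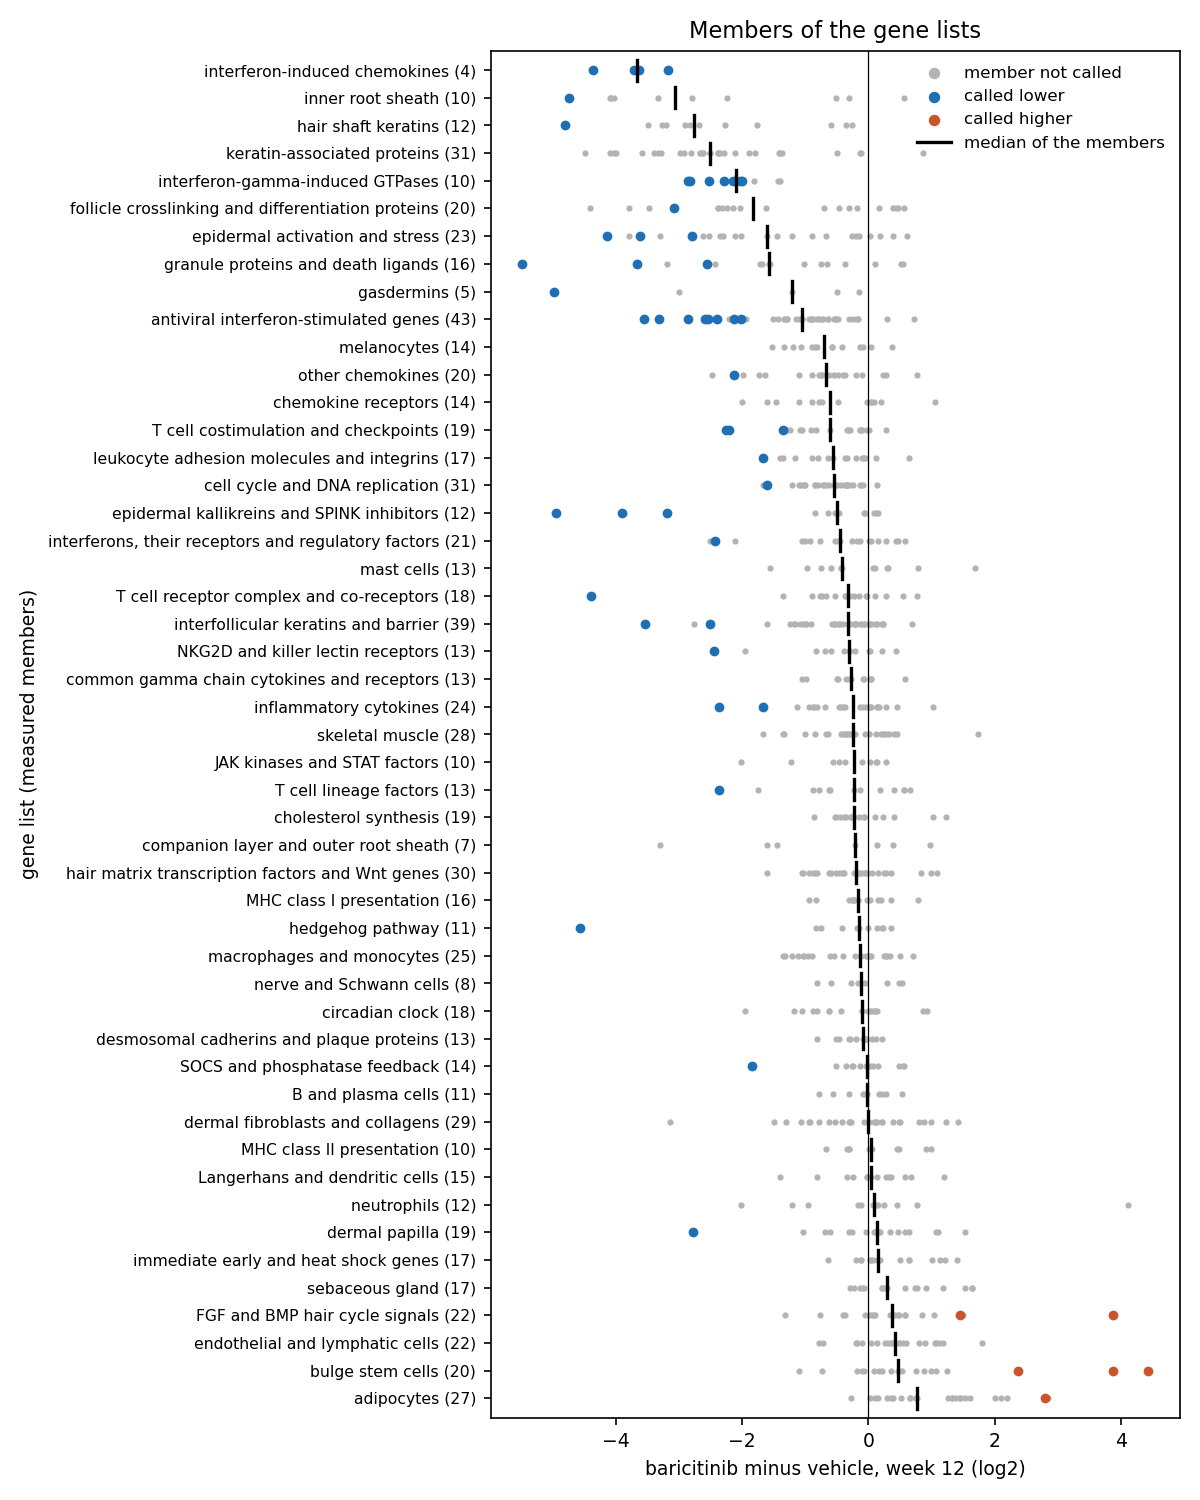
Each row is a gene list with its number of measured members, each point a member placed by its log2 difference of baricitinib minus vehicle at week 12, coloured where called, with a black bar for the median. Interferon-induced chemokines have the lowest median (-3.67) and adipocyte genes the highest (0.77), and called members stand mostly in the interferon, lymphocyte, follicle and epidermal lists.

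Most called genes belonged to none of the 53 lists, 80 of the 129 lower and 39 of the 44 higher. Among the largest on the lower side, Ang2, a ribonuclease of the angiogenin family, was at 3.96, 4.79 and 5.5 with baricitinib and 9.96, 8.91 and 9.07 with vehicle (-4.56 ± 0.51, adjusted p = 0.00687), and passed with each of the 12 arrays left out. 2610528A11Rik, which encodes a ligand of the receptor GPR15, was at 6.97, 5.79 and 7.56 and 11.05, 10.50 and 10.56 (-3.93 ± 0.51, adjusted p = 0.0096), and Adamts20, a secreted metalloprotease, at 3.93, 4.79 and 2.86 and 7.5, 6.86 and 8.24 (-3.68 ± 0.49, adjusted p = 0.0101). None of the 3 overlapped between treatments, and the last 2 were called in 11 of the 12 fits. Chosen after their values were seen, Ccl1, a chemokine for CCR8, differed by -2.94 (adjusted p = 0.00756), Acod1, the itaconate-producing enzyme of activated macrophages, by -2.97 (0.00861), Lrrc15, a membrane protein of activated fibroblasts and other cells, by -3.03 (0.00687), and the gap junction genes Gjb2 and Gjb6 by -2.39 and -2.39 (0.00861 and 0.017). Also chosen so, Chek1 and Brca1, which act in DNA damage and replication, had -1.81 and -2.29 (0.0364 and 0.0259). Of these, Ccl1 and Lrrc15 were called in 12 of the 12 fits, Acod1 and Gjb2 in 11, Brca1 in 8, Gjb6 in 7 and Chek1 in 4.

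On the higher side, 2 aldo-keto reductases stood among the largest differences. Akr1c19 was at 8.90, 9.32 and 8.76 with baricitinib and 5.88, 4.85 and 5.57 with vehicle (3.56 ± 0.60, adjusted p = 0.0265). Akr1c18, which inactivates progesterone, was at 11.60, 12.30 and 12.20 and 10.87, 9.18 and 9.10 (2.32 ± 0.44, adjusted p = 0.0467). Their lowest treated and highest vehicle mice were well apart in Akr1c19 and close in Akr1c18. Agr3, a protein disulfide isomerase relative, was tight at a low level, 4.74, 4.59 and 4.5 and 2.29, 2.14 and 2.35 (2.35 ± 0.21, adjusted p = 0.00404). Cck, the peptide hormone cholecystokinin, was at 6.34, 7.22 and 6.84 and 4.79, 4.47 and 4.47 (2.22 ± 0.25, adjusted p = 0.00687), and Pdzrn4 at 5.67, 6.0 and 6.40 and 3.12, 2.82 and 3.43 (2.90 ± 0.30, adjusted p = 0.00687). Agr3, Cck, Pdzrn4 and Sncg were the 4 higher genes called with every array left out in turn, while Akr1c19 was called in 7 of the 12 fits and Akr1c18 in 3. Rab17, a GTPase of epithelial trafficking (2.76), the adhesion molecule Nectin3 (2.24), the peroxisomal gene Acoxl (2.32), Upk3b (2.15) and Bmper, which binds BMP proteins (2.11), complete the 15 largest and were called in 7 to 10 of the 12 fits. The other probe set of Rab17 differed by 0.15 and was not called. Chosen after their values were seen, Igfbp3 (2.04, adjusted p = 0.0235) and Pappa2 (2.09, 0.0473), a carrier of insulin-like growth factors and a protease that cleaves such carriers, were both higher, in 7 and 2 of the 12 fits.

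No probe set passed the test between the same mice before treatment. At week 0 limma called 0 of 45037 (0%), with 508 at an unadjusted p under 0.05, against 2705 lower and 2198 higher at week 12. The 508 are fewer than that threshold would pass without any difference if probe sets were independent. The 0 calls therefore do not show that the mice were alike before treatment. The genes called at week 12 had median week 0 differences of 0.02 among the lower and 0.01 among the higher, ranging from -1.31 to 1.26 and from -0.92 to 1.04. The lowest week 0 values among the called genes were those of Npy, the neuropeptide Y gene (-1.31, against -2.90 at week 12, where it was called in 2 of the 12 fits), Gzma (-1.28) and Spink12 (-1.23), and the highest those of Shh (1.26) and Krt35 (1.24). Whether the difference at week 12 exceeded that at week 0 was tested as 1 contrast over all probe sets, and none passed (lowest adjusted p = 0.0758, 2825 at an unadjusted p under 0.05). In all 173 called genes that change of the difference had the sign of the week 12 difference, and 172 had an unadjusted p under 0.05. The 2 contrasts share the week 12 arrays, and these genes were chosen by their week 12 difference. The sign and the small unadjusted p were therefore largely fixed in advance and give no support of their own.

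**Figure D5:**
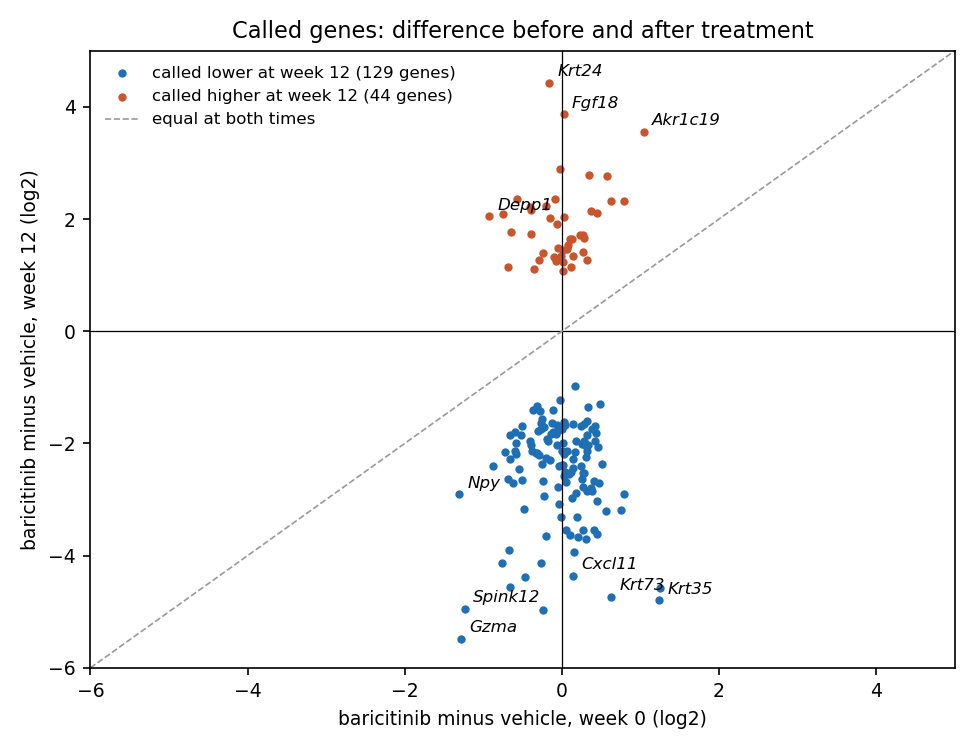
Each point is 1 of the 173 genes called at week 12, placed by its log2 difference of baricitinib minus vehicle at week 0 (horizontal axis) and at week 12 (vertical axis), with a dashed line where both are equal. The week 0 differences stay between -1.31 and 1.26. The range at week 12 is wider in part because the genes were chosen by their difference at that time.

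Some sizes are bounded by the array's low end. In 44 of the 129 lower genes all 3 baricitinib values were under the median of their array, and in 13 of the 44 higher genes all 3 vehicle values were, where array values compress differences. Of the called genes with several probe sets, 50 lower and 18 higher, all probe sets were called in 4 and 4, and in 8 lower and 1 higher a probe set had the opposite sign.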

How the data were processed

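Skin biopsies were measured on Affymetrix whole-genome mouse arrays. According to the study's methods the authors amplified RNA with the NuGen Ovation system and checked arrays with affyanalysisQC, and the deposited values are log2 intensities that the authors made by RMA over each experiment. The RMA version is not given in the sources used here, and RMA pulls low values together. Here 64 control probe sets were left out and the other 45037 entered a limma model (limma 3.58.1, R 4.3.3) of 4 groups of 3 arrays, with an adjusted p from limma's moderated test after Benjamini-Hochberg adjustment over all probe sets. Each SE is from that fit, with 8 residual and 3.54 prior degrees of freedom. The scripts were tested on simulated data. Probe sets with 1 gene symbol (34945, against 932 with several and 9160 with none) were reduced to 18193 genes by their highest mean over 12 arrays. The 3 mice per group limit the precision.

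Named genes were the 15 largest called in each direction without overlap, the called list members (at most 6 a list) with up to 3 others, and the genes of the ALADIN signatures, the JAK and STAT factors and cell type markers. Other genes (B2m, Cd74, Cd8b1, Herc6, Oas1a, Ifi47, Cd34, Sox9, Lhx2, Lgr5, Mki67, Npy and those so marked in the text) were picked with their values in view. The comparison, its lists and its promoters were chosen with earlier results of these data known. The arrays are numbered by mouse, so equal numbers in different treatments are different mice and the groups compared were not paired. The alternatives tried were other normalizations, filters, probe set rules, variance priors and thresholds, array weights, replicate blocks, the RNA index and leaving out arrays.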

Additional observations from a re-analysis of the deposited data

How the results depend on the processing

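The number of calls varied with the alternative. The sign of a called gene cannot turn when 1 array is left out, since its groups do not overlap, and is no measure of stability. Against 68 probe sets higher and 193 lower, leaving out 1 array at a time gave 11 to 258 higher and 21 to about 3.7e+02 lower, the lowest without vehicle week 12 replicate 1 and the highest without baricitinib week 12 replicate 1. The title number as a fixed replicate block gave 23 and 73, though it joins different mice (correlations of deviations -0.375, 0.322 and -0.502), and the mouse as a random replicate block gave 68 and 193. The 6 week 12 arrays alone gave 12 and 43. With the RNA index of the control probe sets in the model there were 304 and 488. With both arrays of lowest correlation left out, chosen after seeing the data, the counts were 443 and 565, and with baricitinib replicate 1 alone against vehicle, also chosen so, 8 and 24. A threshold of 0.1 gave 170 and 405. Adjusting over 1 probe set per gene gave 72 genes higher and 211 lower, against 44 and 129 genes, and their mean per gene 82 and 178. Array weights, which did not converge, gave 5423 and 5782. At week 0 they gave 5712, where a median level filter, loess, median centring and both replicate blocks gave 0. The other alternatives were not fitted at week 0. The causes were not tested. A median level filter, loess, median centring, and trended and robust priors gave 51 to 88 higher and 180 to 273 lower.

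Limits are the 3 mice per treatment and RNA quality that differed between most baricitinib arrays and vehicle. Further limits are bulk tissue in which cell number and RNA per cell cannot be separated, and low array values in which differences are compressed.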
